A study of Mus musculus with 25 samples.

Results

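The core circadian clock genes comprised 10 genes: *Clock* and *Npas2*, *Per1*, *Per2* and *Per3*, *Cry1*, *Nr1d1* and *Nr1d2*, *Dbp*, and *Ciart*. They were chosen by symbol, matched to the mouse Ensembl identifiers of the deposited tables, and were followed in all 5 groups. All 10 were found among the 48795 genes of the tables, and all 10 were among the 15625 genes with enough counts to be tested. The 25 libraries came from liver and liver tumors of male C57BL/6J mice, an inbred strain. nonDEN L-CD (n = 3) was liver of untreated mice on the control diet, and nonDEN L-WD (n = 4) was liver of untreated mice on the western diet. DEN L-CD (n = 4) was liver of mice that had received diethylnitrosamine (DEN), a carcinogen that hepatocytes activate, and the control diet. DEN PT-WD (n = 8) was peritumoral liver and DEN T-WD (n = 6) was tumor, both from mice given DEN and the western diet. DEN was injected once at 25 mg/kg at 2 weeks of age, the diets began at weaning, and tissue was taken at 36 weeks, with a later age also given in the supplement to the study. The labels do not tie libraries to mice, so that libraries of a group, or a tumor and a peritumoral library, may share an animal. The main tests left out any such pairing, and the p-values below measure only the spread between these samples. The hour of harvest is not given in the sources used here, so a difference between groups and a difference in the hour at which the groups were harvested cannot be told apart.

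The mammalian clock is a loop of transcription factors that runs in nearly every cell with a period of about a day. CLOCK, or its relative NPAS2, pairs with BMAL1 (the product of *Arntl*) and activates genes with E-boxes, among them the *Per*, *Cry* and *Nr1d* genes, *Dbp* and *Ciart*. PER and CRY proteins, and CIART, then repress CLOCK and BMAL1. NR1D1 and NR1D2 (REV-ERBα and REV-ERBβ) repress *Arntl*, *Clock*, *Npas2*, *Nfil3* and *Cry1*, which therefore peak at another time of day from the E-box genes. DBP, with its relatives TEF and HLF, activates genes with D-boxes, and NFIL3 represses them. In liver the clock is known to time metabolism and to take cues from feeding, body temperature and glucocorticoids.

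E-boxes and D-boxes stood in the promoters of some members. Of the 10 genes, 9 had a promoter in the RefSeq table used (GRCm38.p6, 12 windows of 250 bases upstream of an annotated start), and *Per2* had none. The windows of *Ciart* (chr3:95882229-95882478, minus strand), *Per3* (chr4:151044666-151044915, minus strand), *Cry1* (chr10:85185055-85185304, minus strand) and *Per1* (the first of 2 windows, chr11:69098699-69098948, plus strand) are shown 5′ to 3′ because they hold the E-boxes and D-boxes found among the members, with E-boxes (CACGTG) and D-boxes (TTATGTAA) in capitals.
Ciart: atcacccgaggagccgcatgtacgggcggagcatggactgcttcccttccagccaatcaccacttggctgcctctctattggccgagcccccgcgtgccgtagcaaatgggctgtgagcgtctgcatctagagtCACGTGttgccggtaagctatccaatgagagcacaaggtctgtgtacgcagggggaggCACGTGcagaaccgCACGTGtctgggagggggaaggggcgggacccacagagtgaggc
Per3: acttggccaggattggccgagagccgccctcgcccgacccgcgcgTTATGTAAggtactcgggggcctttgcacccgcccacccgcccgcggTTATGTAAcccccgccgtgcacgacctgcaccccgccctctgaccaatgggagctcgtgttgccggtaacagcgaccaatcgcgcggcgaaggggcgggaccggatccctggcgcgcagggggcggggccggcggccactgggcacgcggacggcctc
Cry1: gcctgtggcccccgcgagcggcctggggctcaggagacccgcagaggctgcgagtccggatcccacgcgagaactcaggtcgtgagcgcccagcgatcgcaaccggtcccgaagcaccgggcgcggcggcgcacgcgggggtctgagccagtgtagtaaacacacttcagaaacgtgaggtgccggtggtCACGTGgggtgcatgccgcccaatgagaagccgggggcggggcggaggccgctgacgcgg
Per1: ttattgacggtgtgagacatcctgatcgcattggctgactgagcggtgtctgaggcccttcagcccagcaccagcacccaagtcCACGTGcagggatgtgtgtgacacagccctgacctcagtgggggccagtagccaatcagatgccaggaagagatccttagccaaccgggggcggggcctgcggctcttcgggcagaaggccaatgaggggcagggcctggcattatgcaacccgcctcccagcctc
*Ciart* held 3 E-boxes, which began 116, 58 and 44 bases before the start, *Cry1* held 1 at 60 bases and *Per1* held 1 at 166 bases. *Per3* was the member with D-boxes, at 205 and 158 bases, and held no E-box in this window. The related E′-box (CACGTT) lay at 79 bases in *Cry1* and at 28 bases in *Nr1d1*, and the core sequence bound by REV-ERB and ROR factors (AGGTCA) lay in a window each of *Clock*, *Nr1d2* and *Per1*. Both strands were searched. Over all 32851 promoters of the table, 6.02% held an E-box, 3.85% an E′-box, 0.819% a D-box and 14% AGGTCA, and a match is a description of letters, not evidence of binding.

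Levels between genes were compared on the TPM scale, the share of transcripts corrected for gene length. Across the 25 libraries *Dbp* was the most abundant member, with a mean level of 63.1 TPM, followed by *Nr1d2* at 44.1 TPM and *Nr1d1* at 22.5 TPM. These are the D-box activator and the REV-ERB repressors. *Per1* (11.4 TPM) and *Clock* (10.1 TPM) lay in the middle, ahead of *Ciart* (7.44 TPM), *Per2* (6.94 TPM), *Per3* (6.36 TPM) and *Cry1* (2.80 TPM). *Npas2*, at a mean of 0.154 TPM, was close to the limit of detection, with 0 to 10 counts in each library outside the tumors and 7 to 37 counts in the tumors. Some *Nr1d1* reads could belong to *Thra*, which lies on the opposite strand and shares 8.55% of its exon bases, and *Dbp* shares 18% with *Sphk2* in the same way. The use of strand in counting was not stated. *Ciart* shares 11.9% of its 50-base words with *Gm9176* and *Nr1d2* shares 5.13% with *AC170187.1*, so that their counts are less certain.

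Libraries held 21530083 to 38074411 expected counts, and 7 of 25 libraries, found in every group, held over 1000 TPM in sum of 8 pancreatic acinar genes, which range from 9.74 to 5722 TPM. *Alb*, the hepatocyte marker, stood at 21879 to 99736 TPM, so that the libraries matched their label of liver. Tumor replicate 5 stood apart, with 31823 TPM summed over 7 hepatocyte markers, against 110131 to 130231 TPM in the other 5 tumor libraries. The values of members below are TMM-normalized counts, which are comparable between libraries for one gene.

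**Figure D1:**
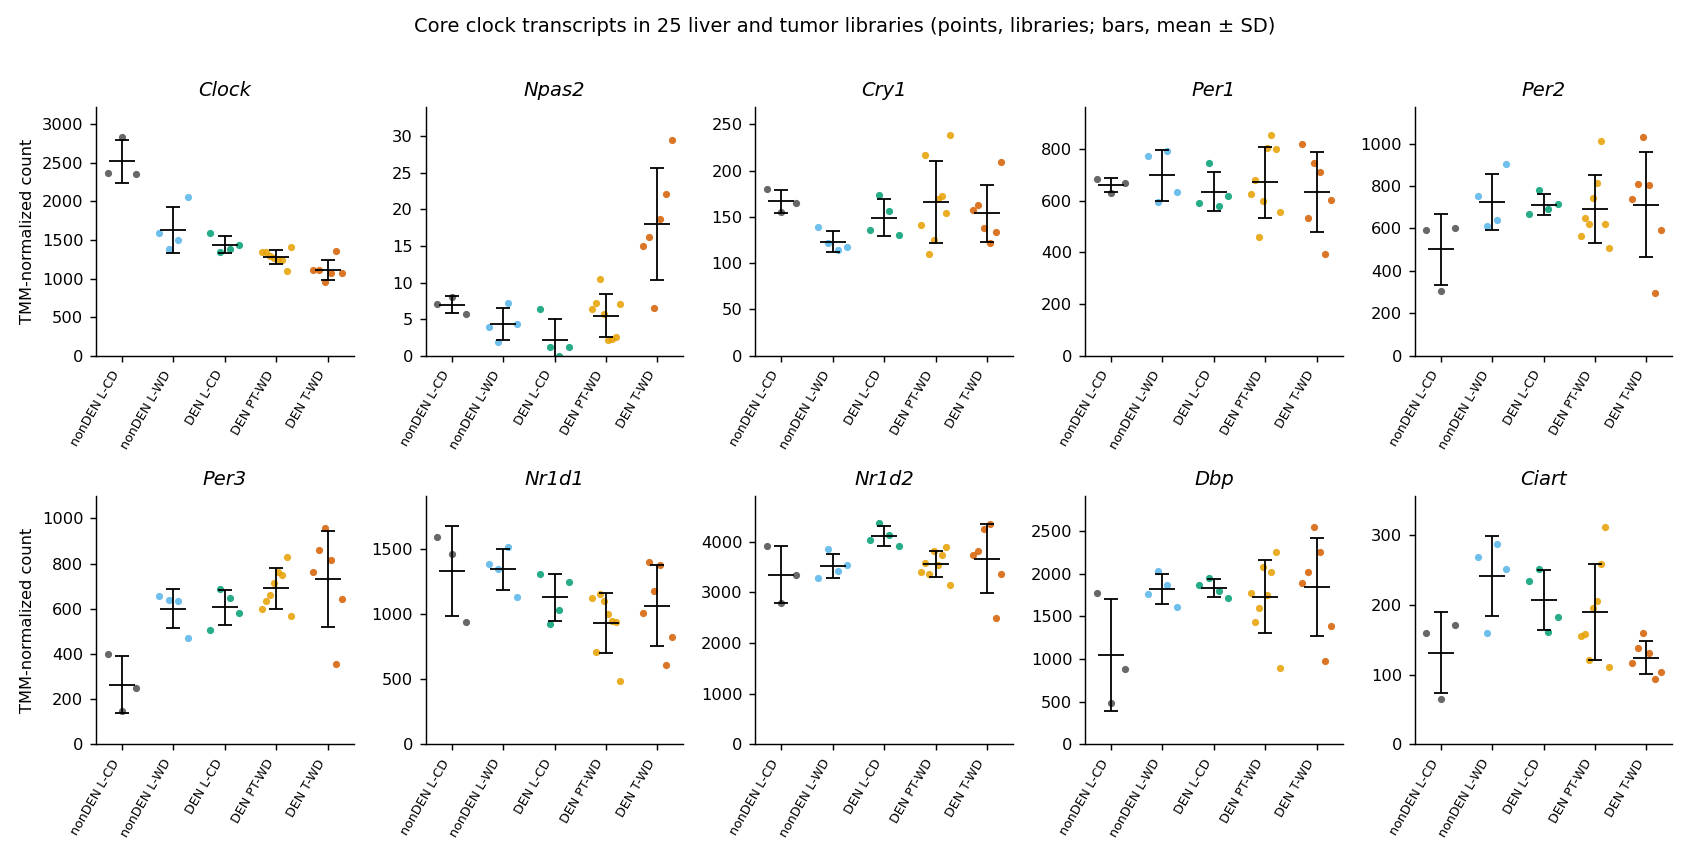
TMM-normalized counts (y axes, starting at 0) of the 10 core clock genes by group (x axes), with each point a library and bars the mean ± SD. The 3 nonDEN L-CD libraries lie above all 22 others for Clock and below all other non-tumor libraries for Per3, while Npas2 is highest in tumors.

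Whether each member differed among the 5 groups at all was tested first, by edgeR's quasi-likelihood test with Benjamini-Hochberg adjustment over all genes. *Clock* (adjusted p = 5.31e-08), *Npas2* (adjusted p = 0.00037), *Per3* (adjusted p = 0.000606) and *Ciart* (adjusted p = 0.0155) differed, which is 4 of 10 members, against 68.5% of all genes tested. *Npas2* met the count filter through the tumor libraries, the group in which it is high, so that its place in this count is a description, and of the other 9 members 3 differed. *Nr1d1* (adjusted p = 0.132), *Dbp* (0.161), *Cry1* (0.204), *Nr1d2* (0.274), *Per2* (0.434) and *Per1* (0.922) missed the threshold, and for these 6 genes the mean ± SD ranges of neighbouring groups overlapped throughout the order of their means. On the log2(TPM + 1) scale tested by limma, 8 members differed, against 72.1% of all genes. Log2 ratios of TPM exceeded those of normalized counts by a median of 0.126, 0.0414, 0.226, 0.311 and 0.131, over 8353 genes at a mean of 5 TPM or more, in the 5 comparisons taken in the order of the panels of log2 fold changes, and single genes can depart from these medians. In bulk tissue, fewer cells of a type and less RNA per cell cannot be told apart.

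*Clock* and *Per3* moved in opposite directions against untreated control-diet liver. *Clock*, the transcription factor that drives the E-box arm (chr5:76209868-76304792, minus strand), measured 2372, 2840 and 2352 normalized counts in nonDEN L-CD. It measured 1592, 1382, 1502 and 2061 in nonDEN L-WD, while the DEN L-CD libraries measured 1596, 1343, 1386 and 1438. The lowest nonDEN L-CD library thus lay above every library of both other groups. *Clock* fell by 0.63 ± 0.12 (SE) on the log2 scale with the western diet (adjusted p = 0.000693) and by 0.81 ± 0.12 in DEN L-CD (adjusted p = 6.01e-05, edgeR), and both adjusted p-values stayed at or below 0.05 in all 14 alternative fits of each comparison. Neither reached the 2-fold change that the study required of a call.

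*Per3*, a period gene (chr4:151003652-151044665, minus strand), measured 399, 147 and 249 normalized counts in nonDEN L-CD, the lowest 3 of all non-tumor libraries. It measured 657, 638, 633 and 472 in nonDEN L-WD, while the DEN L-CD libraries measured 508, 689, 647 and 581, with no overlap in either comparison. *Per3* rose by a log2 fold change of 1.18 ± 0.27 (SE) with the western diet (adjusted p = 0.00349) and of 1.19 ± 0.27 with DEN (adjusted p = 0.00335). It was the 1 member of 10 called at an adjusted p of at most 0.05 and a 2-fold change in each comparison, against 5.28% and 4.7% of all genes. By adjusted p alone 2 of 10 members passed in each, against 23.2% and 21.3%. The call of *Per3* rested on nonDEN L-CD replicate 2. Without that library the log2 fold changes were 0.89 (adjusted p = 0.0345) and 0.91 (adjusted p = 0.0339), below 2-fold. Calls over all genes fell without it as well, from 825 to 507 and from 734 to 430. The 2 comparisons share the 3 nonDEN L-CD libraries, so that they are not independent of each other.

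*Dbp*, *Ciart* and *Per2* were spread widely among the 3 nonDEN L-CD libraries. *Dbp* measured 1773, 488 and 882 normalized counts there, against 1607 to 2030 in nonDEN L-WD and 1715 to 1952 in DEN L-CD. Replicates 2 and 3 lay below every library of both groups, and replicate 1 lay inside their ranges. Its log2 fold changes of 0.80 ± 0.33 and 0.81 ± 0.33 did not pass (adjusted p = 0.0837 and 0.0833), and they turned on single libraries. Without replicate 1 they were 1.39 and 1.41 (adjusted p = 0.0045 and 0.00429), and without replicate 2 they were 0.45 and 0.47 (adjusted p = 0.39 and 0.386). *Ciart* measured 159, 64.4 and 171, against 159 to 287 in nonDEN L-WD and 160 to 252 in DEN L-CD, with log2 fold changes of 0.88 ± 0.33 (adjusted p = 0.0571) and 0.66 ± 0.33 (adjusted p = 0.163). *Per2* measured 594, 306 and 603, all below the 613 of the lowest nonDEN L-WD library and the 666 of the lowest DEN L-CD library, and its log2 fold changes of 0.54 ± 0.29 and 0.51 ± 0.29 did not pass (adjusted p = 0.194 and 0.225). The 3 genes thus had the sign of *Per3* without passing the test. Without nonDEN L-CD replicate 2 the log2 fold changes were 0.55 and 0.33 for *Ciart* (adjusted p = 0.302 and 0.567) and 0.28 and 0.25 for *Per2* (adjusted p = 0.611 and 0.649). With the western diet *Ciart* missed the threshold in 11 of 14 alternatives, and its lowest adjusted p was 0.0352, without nonDEN L-WD replicate 2.

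The period gene *Per1* and the REV-ERB genes showed smaller differences in these comparisons. *Per1* measured 683, 630 and 669 normalized counts in nonDEN L-CD, and its log2 fold changes were 0.08 ± 0.20 and -0.06 ± 0.20. *Nr1d1* overlapped between all groups, with log2 fold changes of 0.01 ± 0.26 and -0.24 ± 0.26. *Nr1d2* had log2 fold changes of 0.07 ± 0.13 in nonDEN L-WD and 0.29 ± 0.14 in DEN L-CD. None of these passed, and a missed threshold does not show that the levels were alike. *Cry1*, which encodes the repressor partner of PER, measured 155 to 180 in nonDEN L-CD and 114 to 139 in nonDEN L-WD, without overlap, and its log2 fold change of -0.44 ± 0.21 did not pass (adjusted p = 0.137). *Npas2* had a log2 fold change of -0.68 ± 0.65 in nonDEN L-WD (adjusted p = 0.486). In DEN L-CD *Npas2* had 6, 1, 0 and 1 counts, too few for a reading of its log2 fold change of -1.55 ± 0.71 (adjusted p = 0.125).

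**Figure D2:**
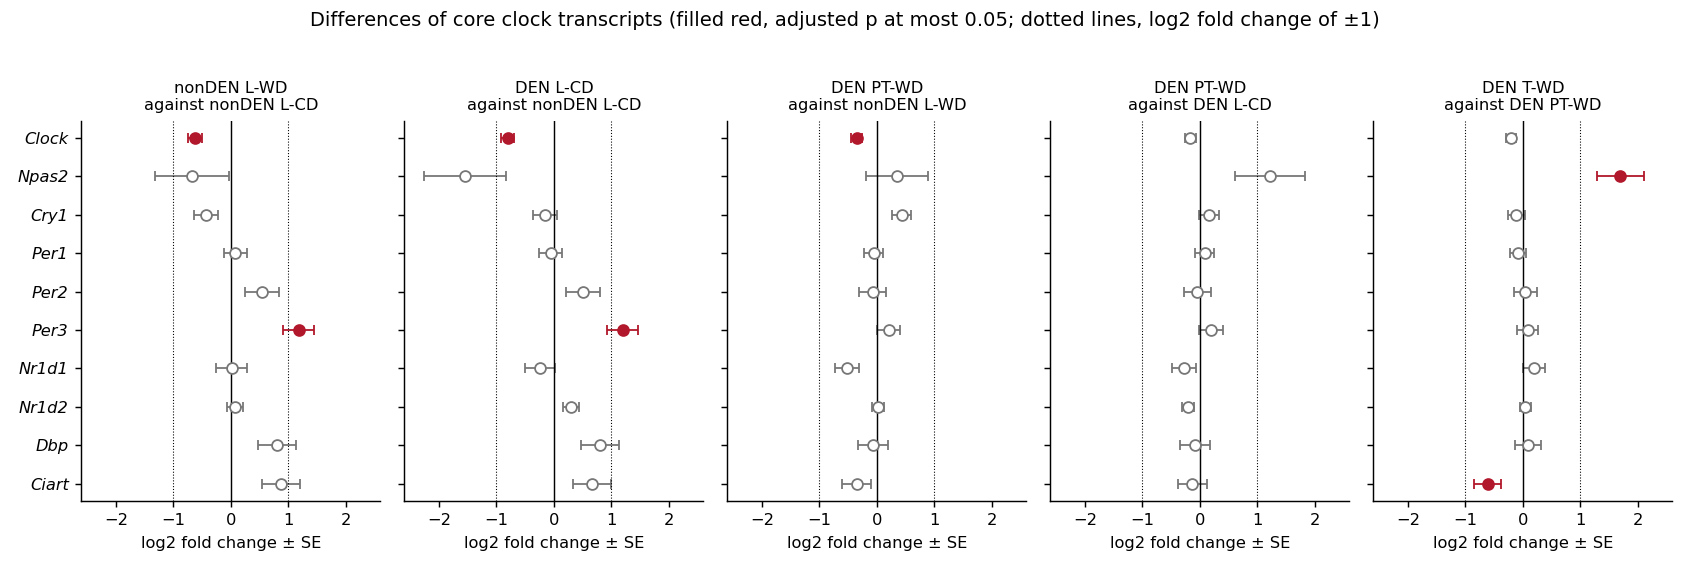
Log2 fold changes ± SE (x axes) of the 10 core clock genes (y axis) in 5 comparisons, 1 to a panel. Filled red points pass an adjusted p of 0.05: Clock and Per3 in both comparisons against nonDEN L-CD, Clock alone in DEN PT-WD against nonDEN L-WD, no member against DEN L-CD, and Npas2 and Ciart in tumor against peritumoral liver.

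The contrast of *Clock* with *Per3* within a library separated nonDEN L-CD from all others. The log2 CPM of *Clock* minus that of *Per3* was 2.57, 4.25 and 3.23 in nonDEN L-CD and lay between -0.01 and 2.12 in the 22 other libraries. For *Clock* minus *Dbp* it was 0.42, 2.54 and 1.41, and the 22 others lay between -1.42 and 0.65, so that nonDEN L-CD replicate 1 overlapped them. These differences use the same values as the tests above and were not tested again.

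Clock genes outside the set were examined in a list of 15 other clock genes and a list of 12 clock outputs of liver, all of which were tested. Among the other clock genes, 4 rose and 2 fell in nonDEN L-WD against nonDEN L-CD by adjusted p, and 4 rose and 3 fell in DEN L-CD, while 11.2% and 9.12% of all genes rose and 12% and 12.2% fell. List medians were 0.04 and 0.18 on the log2 scale against 0.01 and 0.02 over all genes. *Arntl*, which encodes the partner of CLOCK, measured 90.1, 221 and 110 normalized counts in nonDEN L-CD, above the ranges of 27.4 to 50.7 in nonDEN L-WD and 27.9 to 42.2 in DEN L-CD. It fell by 1.88 ± 0.40 (SE) and 1.95 ± 0.40 on the log2 scale (adjusted p = 0.0018 and 0.00145). *Nfil3*, the repressor at D-boxes, measured 812, 1286 and 1290 in nonDEN L-CD, against 316 to 410 in nonDEN L-WD and 260 to 455 in DEN L-CD. It fell by 1.65 ± 0.20 and 1.63 ± 0.20 on the log2 scale (adjusted p = 1.01e-05 and 1.22e-05). Of the 5 REV-ERB targets named above, *Arntl*, *Nfil3* and *Clock* had their highest group mean in nonDEN L-CD. *Cry1* was level between nonDEN L-CD (167 normalized counts) and DEN PT-WD (166), and *Npas2* was highest in tumors (18.0 against 6.93 in nonDEN L-CD).

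Of the 12 clock outputs, 5 rose and 1 fell by adjusted p in each comparison, with medians of 0.59 and 0.58 on the log2 scale. *Wee1*, an E-box gene for a kinase that holds back mitosis, measured 236, 83.9 and 80.2 normalized counts in nonDEN L-CD, below the 377 to 527 of nonDEN L-WD and the 510 to 700 of DEN L-CD. Its log2 fold changes were 1.76 ± 0.27 and 2.16 ± 0.27 (adjusted p = 0.0001 and 1.42e-05). *Upp2*, a uridine phosphorylase of liver, ran from 808 to 5788 in nonDEN L-CD and from 7230 to 16516 in the other 2 groups, with log2 fold changes of 1.59 ± 0.42 and 1.95 ± 0.43 (adjusted p = 0.00913 and 0.00257), of which the first missed the threshold in a fit of only the 2 groups compared (adjusted p = 0.0753). *Usp2*, a deubiquitinating enzyme, rose as well, by log2 fold changes of 1.24 ± 0.31 and 1.07 ± 0.31 (adjusted p = 0.00618 and 0.0165), but the first missed the threshold in 1 of 14 alternatives (adjusted p = 0.0618, only the 2 groups compared) and the second in 4 of 14, with the highest adjusted p (0.0992) without nonDEN L-CD replicate 2. *Nampt* and *Rgs16* were the other 2 outputs that rose in both, and the output that fell was *Lpin1* in nonDEN L-WD (log2 fold change of -1.43 ± 0.39, adjusted p = 0.0101) and *Elovl3* in DEN L-CD (-1.06 ± 0.28, adjusted p = 0.00945), which missed the threshold in 2 of 14 alternatives (adjusted p up to 0.124).

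Genes of other cues were counted in the same comparisons, in which 11.2% and 9.12% of all genes rose and 12% and 12.2% fell, and 1 gene of a list of 8 or 6 is near those shares. Of 8 temperature-responsive genes, 2 rose (*Cirbp* and *Rbm3*, cold-inducible RNA-binding proteins) and 2 fell (*Hsp90aa1* and *Hsph1*, heat-shock chaperones) by adjusted p in nonDEN L-WD and in DEN L-CD against nonDEN L-CD. Of 6 glucocorticoid targets, 2 fell in nonDEN L-WD and 1 in DEN L-CD, and *Fkbp5* fell in both, by 1.98 ± 0.35 and 2.04 ± 0.35 on the log2 scale (adjusted p = 0.000417 and 0.000305). Of 8 fasting genes 1 fell, and of 6 feeding genes 2 rose in nonDEN L-WD and 1 in DEN L-CD, *Srebf1* in both. These genes are named after their values were seen. The 6 leukocyte markers summed to 19.0 to 27.2 TPM in nonDEN L-CD, 21.6 to 44.6 TPM in nonDEN L-WD and 23.1 to 48.7 TPM in DEN L-CD, and the 4 stellate cell markers to 141 to 155, 136 to 218 and 144 to 181 TPM. The part of these genes and markers in the clock differences was not tested.

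**Figure D3:**
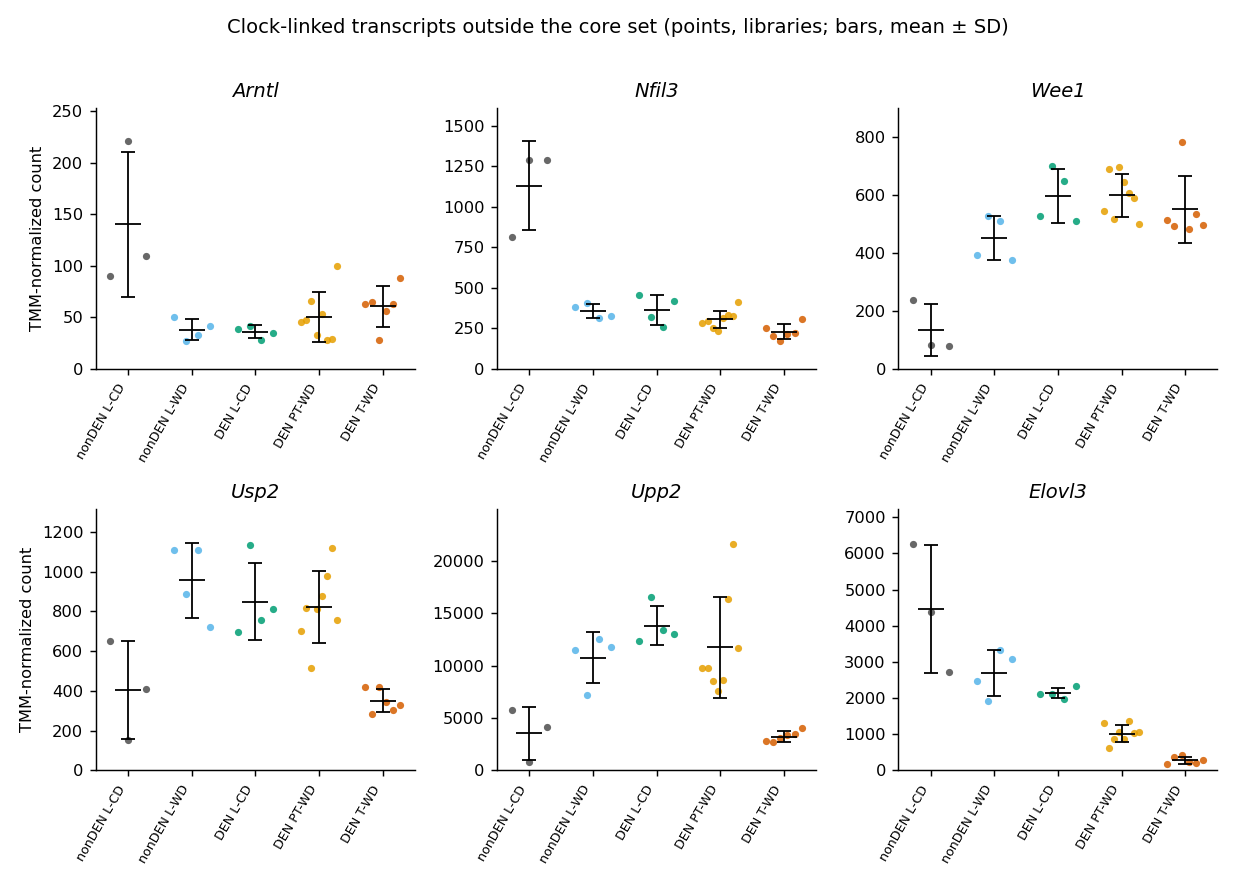
TMM-normalized counts (y axes, starting at 0) of 6 clock-linked genes outside the core set by group (x axes), with each point a library and bars the mean ± SD. Arntl was at 90.1 or more and Nfil3 at 812 or more in nonDEN L-CD, while Upp2, Usp2 and Elovl3 were lower in tumors than in peritumoral liver.

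Peritumoral liver was compared with the 2 non-tumor groups that share 1 factor with it. Against nonDEN L-WD, 0 of 10 members were called with the 2-fold requirement, against 2.76% of all genes, and 1 of 10 passed by adjusted p alone, against 12.4%. edgeR's unadjusted p was under 0.05 for 3 members, and DESeq2 and limma each called 0. The gene that passed was *Clock*, at 1098 to 1410 normalized counts (median 1277) in DEN PT-WD, with 1 library above the 1382 of the lowest nonDEN L-WD library. It fell by 0.35 ± 0.09 (SE) on the log2 scale (adjusted p = 0.0192), but by 0.06 on the log2(TPM + 1) scale (adjusted p = 0.665), and it missed the threshold in 3 of 19 alternatives, which besides that scale were the fits without nonDEN L-WD replicate 4 (log2 fold change of -0.22) and without the 7 libraries rich in acinar transcripts (-0.24). *Nr1d1* and *Cry1* had the next lowest adjusted p-values, with log2 fold changes of -0.53 ± 0.21 (adjusted p = 0.094) and 0.43 ± 0.17 (adjusted p = 0.0949). On the log2(TPM + 1) scale *Cry1* was the member that passed (adjusted p = 0.0173), so that which member passes changes with the scale.

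Against DEN L-CD, which shares the carcinogen, 0 of 10 members were called and 0 passed by adjusted p alone in DEN PT-WD, against 1.9% and 10.6% of all genes. edgeR gave no member an unadjusted p under 0.05, and DESeq2 and limma likewise called 0. *Npas2* had a log2 fold change of 1.22 ± 0.61 (adjusted p = 0.195), and passed (adjusted p = 0.044) without DEN L-CD replicate 1, the library with 6 counts in a group whose other libraries had 0 or 1. The remaining 9 log2 fold changes lay between -0.28 (*Nr1d1*) and 0.19 (*Per3*). Of the 15 other clock genes only *Csnk1e*, a casein kinase that phosphorylates PER, rose, by log2 fold changes of 0.23 ± 0.07 against nonDEN L-WD and 0.28 ± 0.07 against DEN L-CD (adjusted p = 0.0334 and 0.0138). The leukocyte markers summed to 32.9 to 72.8 TPM and the stellate cell markers to 215 to 425 TPM in peritumoral liver. The 4 endothelial markers summed to 67.1 to 89.8 TPM there, above the 40.2 to 64.5 TPM of nonDEN L-WD and the 43.6 to 50.9 TPM of DEN L-CD, and the part of these markers was not tested. Of the 12 outputs only *Elovl3*, an elongase of very long fatty acids, changed, and it fell by 1.40 ± 0.22 and 1.06 ± 0.22 on the log2 scale (adjusted p = 0.000822 and 0.00537).

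In tumors the member that changed most was *Npas2*, the relative of *Clock* (chr1:39193731-39363236, plus strand). It measured 6.48 to 29.4 normalized counts in the 6 tumor libraries (median 17.4) and 2.15 to 10.5 in the 8 peritumoral libraries (median 6.04). Of the 6 tumor libraries, 5 lay above all peritumoral ones and replicate 3 lay within their range. *Npas2* rose by a log2 fold change of 1.70 ± 0.41 (SE, adjusted p = 0.00222), the 1 member of 10 called, against 7.9% of all genes. *Npas2* met the count filter only through the tumor libraries, and a gene kept on that ground had to be higher in tumors, so that the call is a description. Adjusted p-values ran from 0.000263 to 0.038 over its 21 alternatives, among them a fit with no filter on counts. On the log2(TPM + 1) scale its fold change was 0.32, since the pseudocount of 1 exceeds all of its TPM values, and limma called 0 members. The 6 leukocyte markers summed to 40.8 to 105 TPM in tumors and 32.9 to 72.8 TPM in peritumoral liver, and the 4 endothelial markers to 82.2 to 97.6 TPM against 67.1 to 89.8 TPM. Their part in the *Npas2* difference was not tested.

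*Ciart*, the CLOCK repressor with 3 E-boxes in the sequence above, measured 94.4 to 159 normalized counts (median 124) in tumors and 110 to 311 (median 176) in peritumoral liver. It fell by 0.61 ± 0.23 on the log2 scale (adjusted p = 0.0404), and with *Npas2* made 2 of 10 members past the adjusted p alone, against 37.7% of all genes. The threshold was missed in 13 of 21 alternatives, with adjusted p-values up to 0.229, so that this pass of *Ciart* is not firm. Its log2 fold changes over the alternatives ran from -0.7 to -0.33, so that it was not called at 2-fold. The other 8 members had log2 fold changes from -0.20 (*Clock*) to 0.19 (*Nr1d1*) and did not pass.

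In tumors against peritumoral liver, 5 of the 12 clock outputs fell and 0 rose, while 19.5% of all genes rose and 18.1% fell, with a list median of -0.53 on the log2 scale against 0.01 over all genes. The other 7 did not pass, and some had higher means in tumors, such as *Rgs16* with 7381 against 5488 normalized counts and *Gys2* with 7655 against 6055. *Elovl3* fell by 1.85 ± 0.22 (SE, adjusted p = 1.28e-06), *Upp2* by 1.86 ± 0.30 (adjusted p = 5.48e-05) and *Usp2* by 1.23 ± 0.22 (adjusted p = 0.00014) on the log2 scale. *Upp2* measured 2681 to 4004 normalized counts in tumors and 7618 to 21625 in peritumoral liver, *Usp2* 283 to 420 against 514 to 1121, and *Elovl3* 185 to 430 against 618 to 1371. None of the 3 overlapped between the groups. They were named for the largest changes among the outputs called in this comparison, so that this is a description. The share of all genes without overlap was not counted. The 7 hepatocyte markers summed to 110131 to 130231 TPM in 5 of the 6 tumors and 31823 TPM in replicate 5. The sums in peritumoral liver were 41946 to 69278 TPM. *Alb* made up most of these sums, at 82845 to 99736 TPM in those 5 tumors. By adjusted p 2 of the 7 markers rose and 1 fell, with a list median of -0.176 on the log2 scale. The part of these markers in the outputs was not tested. Among the other clock genes 5 rose and 4 fell, all by less than 2-fold, with a median of 0.02.

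Whether the effect of DEN differed between diets was asked by the interaction, the difference of DEN PT-WD and nonDEN L-WD minus that of DEN L-CD and nonDEN L-CD. edgeR found 0 of 10 members past the adjusted p, against 8.39% of all genes, although 6 members had an unadjusted p under 0.05. DESeq2 found 2, against 11.7% of all genes, and limma 1, against 7.77%. *Clock* (log2 difference of 0.46 ± 0.15, adjusted p = 0.064) and *Per3* (-0.99 ± 0.34, adjusted p = 0.0687) came nearest. The WD arm with DEN is peritumoral liver, so that the presence of a tumor and the diet cannot be told apart in it, and the 3 nonDEN L-CD libraries enter here as well.

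Within groups, 8 of the 10 members varied more than the median gene. After the group means were subtracted, the SD of log2 CPM over the 25 libraries had a median of 0.38 across the 10 members, against 0.23 over all genes tested. *Npas2* (0.62, at percentile 88.1 of all genes tested) varied most, though its counts are few, followed by *Dbp* (0.47, percentile 78.4), *Ciart* (0.45, percentile 77.3) and *Per2* (0.42, percentile 74.2). *Clock* (0.16, percentile 30.7) and *Nr1d2* (0.18, percentile 39.4) varied less than the median gene. By group, the median SD of the members was highest in tumors (0.43), followed by DEN PT-WD (0.35) and nonDEN L-CD (0.33), and was lower in nonDEN L-WD (0.21) and DEN L-CD (0.18). The median SD of all genes tested had the same order, at 0.24, 0.211, 0.192, 0.182 and 0.156. The tumor values include replicate 5, which was lowest in its group for all 7 genes of the *Per*, *Nr1d*, *Dbp* and *Ciart* arm. The first place of tumors in the order of the members turned on that library.

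In 4 groups 1 library or more stood at an edge for most of the 7 genes of the *Per*, *Nr1d*, *Dbp* and *Ciart* arm. In nonDEN L-CD, replicate 2 was lowest for 6 of the 7 and highest for *Clock*, and replicate 1 was highest for 5. In DEN L-CD, replicate 2 was highest for 6 of the 7. In DEN PT-WD, replicate 8 was lowest for 6 of these 7, with 897 normalized counts of *Dbp* against 1440 to 2254 in the others and 485 of *Nr1d1* against 712 to 1159, and was highest for *Clock* (1410) and *Cry1* (238). In DEN T-WD, replicate 5 was lowest for all 7, with 295 of *Per2* against 594 to 1030 and 357 of *Per3* against 642 to 960, and highest for *Clock* (1358). Replicate 5 is the tumor with few hepatocyte transcripts. Peritumoral replicate 8 held 54389 TPM of the 7 hepatocyte markers, where the other peritumoral libraries ran from 41946 to 69278 TPM. It was also the deepest library, at 38074411 expected counts. The part of markers and depth in these edges was not tested.

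**Figure D4:**
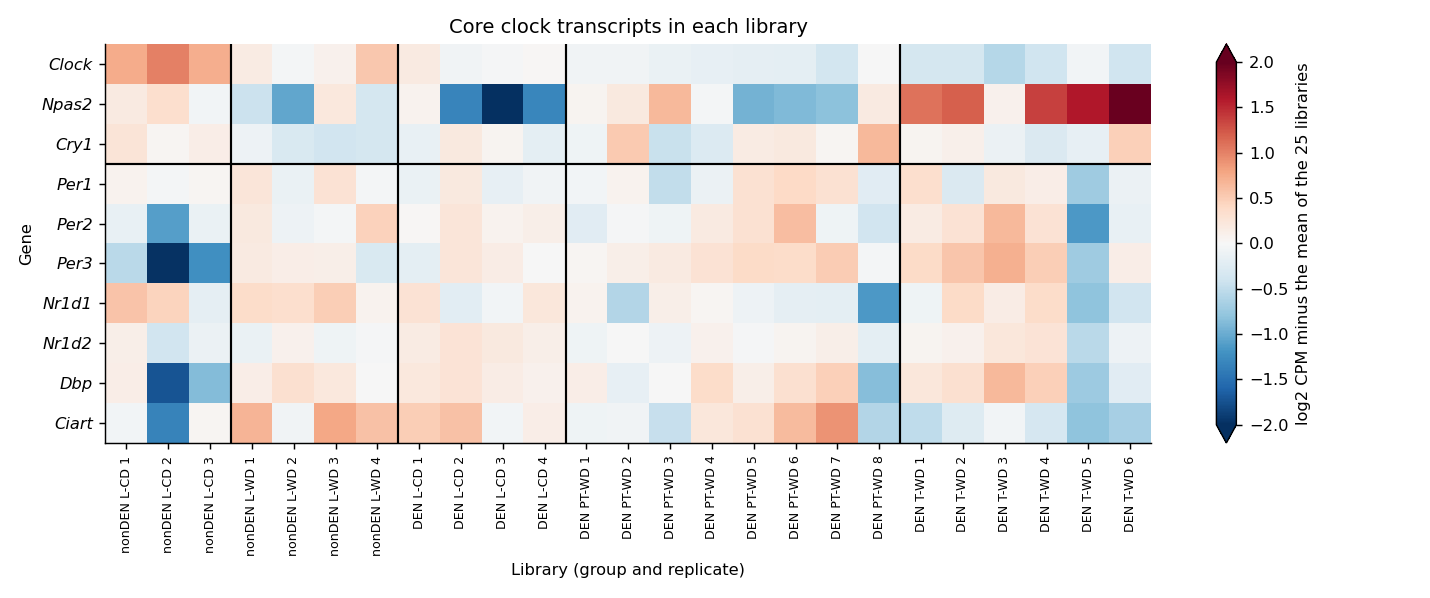
Log2 CPM of each core clock gene (rows) in each of the 25 libraries (columns), with the gene's mean over the 25 libraries subtracted, on a colour scale that ends at -2 and 2. Vertical lines part the groups and the horizontal line parts Clock, Npas2 and Cry1 from the others. Replicate 2 of nonDEN L-CD, replicate 8 of DEN PT-WD and replicate 5 of the tumors are blue for nearly all of the lower 7 genes.

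The covariation of members was tested in peritumoral liver and in tumors, the groups with at least 6 libraries, over all 45 pairs in each, by exact permutation tests (two-sided) with Benjamini-Hochberg adjustment over the 45. In DEN PT-WD (n = 8), 13 pairs passed by Pearson's r, 7 positive and 6 negative. *Clock* ran against *Per3* (r = -0.94, exact permutation p = 4.96e-05, adjusted p = 0.00223, rho = -0.98, permutation p = 0.000397, adjusted 0.0179), and r was -0.97 without the 2 libraries farthest from the median of *Clock*. *Cry1* ran against *Nr1d1* (r = -0.90, exact permutation p = 0.000322, adjusted p = 0.00725, rho = -0.91, permutation p = 0.00456, adjusted 0.0513, r = -0.92 without the 2 farthest libraries). *Per3* and *Ciart* rose together (r = 0.90, exact permutation p = 0.00322, adjusted p = 0.0231, rho = 0.91, permutation p = 0.00456, adjusted 0.0513, r = 0.75 without the 2 farthest). Without the 2 farthest libraries all 13 pairs kept their sign, with the weakest r at -0.53 for *Clock* and *Nr1d2*. By rho 1 of the 45 pairs passed, that of *Clock* and *Per3*. On the log2(TPM + 1) scale 0 of 45 passed, with 10 under an unadjusted 0.05 and a lowest adjusted permutation p of 0.0692, so that the number of correlated pairs depends on the scale.

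In DEN T-WD (n = 6), 12 pairs passed by r, all positive and all within the arm of the E-box genes, and 3 passed by rho. *Per2* and *Per3* ran almost in parallel (r = 0.997, exact permutation p = 0.00139, the smallest that 6 libraries allow, adjusted p = 0.0268, rho = 1, permutation p = 0.00278, adjusted 0.0417, r = 0.99 without the 2 farthest). *Nr1d2* and *Dbp* had an r of 0.98 (exact permutation p = 0.00417, adjusted p = 0.0268, rho = 0.94, permutation p = 0.0167, adjusted 0.107, r = 0.996 without the 2 farthest). Other pairs rested on the 2 farthest libraries. Without these r fell from 0.919 to 0.269 for *Nr1d1* and *Dbp*, from 0.906 to 0.31 for *Per3* and *Nr1d1*, from 0.919 to 0.41 for *Nr1d1* and *Nr1d2* and from 0.965 to 0.501 for *Per3* and *Nr1d2*, and it was 0.851 to 0.998 for the other 8 pairs that passed. Leaving out the library that stood apart gave, as a description, r of 0.77 to 0.98 for these 12 pairs in the 5 remaining tumors, and r of 0.72 to 0.93 in size, with the same signs, for the 13 pairs in the 7 remaining peritumoral libraries. Over all 25 libraries with group means subtracted, and with no test, the highest r was that of *Per3* and *Dbp* (0.89) and the lowest that of *Clock* and *Per3* (-0.78). *Cry1* in tumors depended on the same library, since without replicate 5 its r was -0.978 with *Nr1d2*, -0.904 with *Dbp*, -0.769 with *Nr1d1*, -0.757 with *Per2*, -0.747 with *Per3* and -0.686 with *Ciart* in the 5 remaining tumors. The pairs share libraries and their depth.

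**Figure D5:**
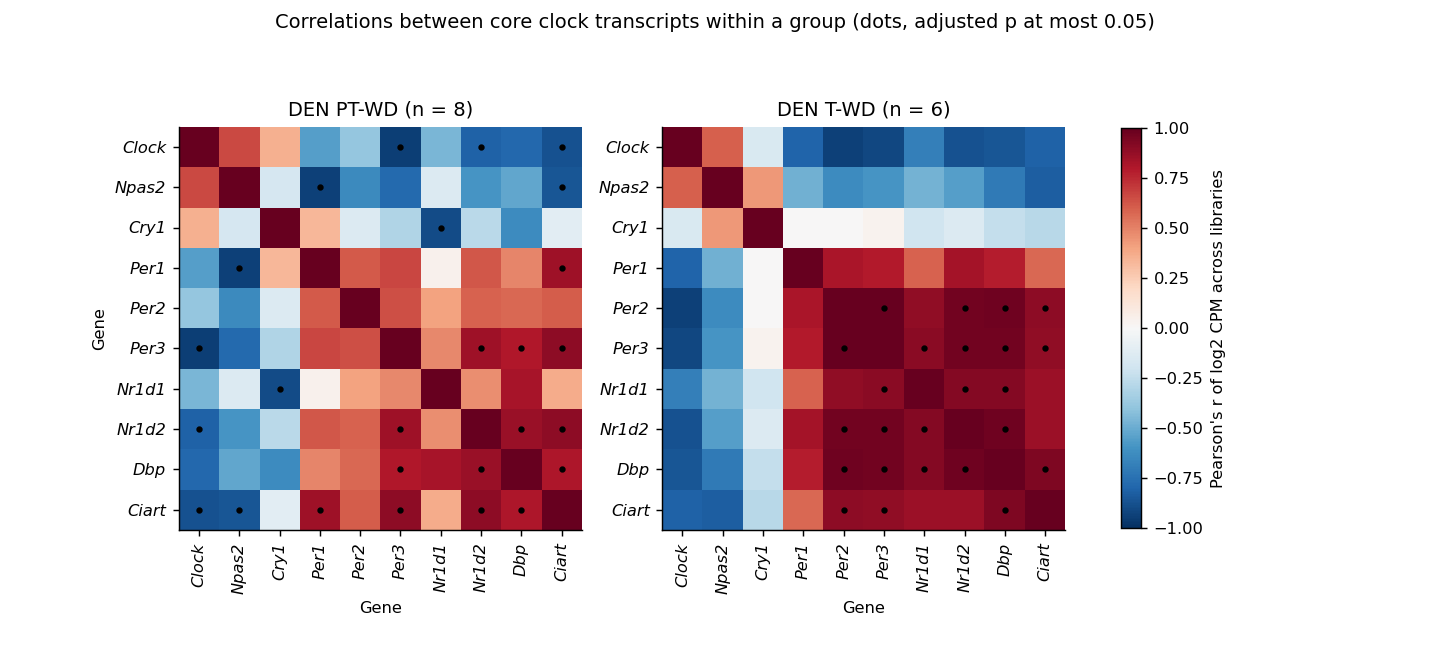
Pearson's r of log2 CPM between pairs of core clock genes across the 8 DEN PT-WD libraries (left) and the 6 DEN T-WD libraries (right), with dots on pairs at an adjusted p of at most 0.05. Both panels show Clock and Npas2 in blue against the Per, Nr1d, Dbp and Ciart genes, and Cry1 in tumors lies between -0.28 and 0.03 with all genes but Npas2, which holds only with tumor replicate 5 included.

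The genes whose pattern came nearest to a member were found by Pearson's r of log2 CPM with group means subtracted, over 25 libraries and 10332 genes with at least 100 normalized counts on average. For *Nr1d1* they were *Jade1* (0.82), *Tmem254c* (0.79), *Klhdc7a* (0.78), *Pnpla7* (0.78) and *Bcar1* (0.77). For *Per1* they were *Angptl6* (0.82), *Ndel1* (0.81), *Gm5617* (0.80), *Slc37a4* (0.80) and *Apoa5* (0.80). For *Npas2* they were *Dtx4* (0.76), *Ifit3b* (0.75), *Pid1* (0.73), *Fas* (0.73) and *Dynlt1b* (0.72). The D-box activator *Tef*, named after the values were seen, came first for both *Dbp* (0.94) and *Per3* (0.92), and *Gys2*, the liver glycogen synthase, came first for *Nr1d2* (0.94). These likenesses are descriptions of 25 libraries and were not tested.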

How the data were processed

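Liver and tumor RNA of 25 samples in 5 groups was analysed, with groups, replicate numbers, dose and injection age from the labels and harvest age from the paper. The submitters' processing notes and the paper name FastQC, STAR and RSEM on GRCm38. The expected counts deposited by the authors are RSEM's estimates of reads per gene, not normalized. The TPM values deposited by the authors are RSEM's length-corrected shares. Which STAR and RSEM versions, annotation release and strand setting were used is not given in the sources used here.

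Rounded expected counts entered edgeR 4.0.16 under R 4.3.3 (quasi-likelihood F test by glmQLFit and glmQLFTest, TMM, filterByExpr with a minimum count of 10) in 1 fit of 5 groups, with Benjamini-Hochberg adjustment over 15625 genes. A gene was called at an adjusted p up to 0.05 if its log2 fold change also reached 1 in size, thresholds taken from the paper's methods. Division by TMM library sizes gave the normalized counts, and log2 CPM used a prior count of 2. Alternatives were DESeq2 1.42.0, its size factors, limma 3.58.1 on log2(TPM + 1) with a pseudocount of 1, no filter, a replicate block, only the groups compared, no minimum fold change and each replicate left out. Leaving out 7 libraries rich in acinar transcripts, and limma for the interaction, were added after the data were seen. Correlations, promoters and figures used SciPy 1.17.1, NumPy 2.4.6, pandas 2.3.3 and Matplotlib 3.10.9 under Python 3.11.15. Procedures were tested on simulated data with 200 changed genes. Genes with few counts, such as *Npas2*, are measured with little precision.

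The members and gene lists were chosen with earlier results of these data known. The text names all members, up to 3 genes per comparison with the largest change among called other clock genes and outputs, and the 5 nearest genes of *Npas2*, *Nr1d1* and *Per1*. Other names were chosen after their values were seen. No 2 libraries of a group were near-identical.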

Additional observations from a re-analysis of the deposited data

Results flagged for a closer look

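*Per3* in nonDEN L-WD replicate 4, at 471.9 normalized counts, lay far below the 632.8 to 657.4 of the other 3 libraries of its group, by Dixon's test. It was the 1 value so marked among 40 tests of members in groups of 4 to 8 libraries, where chance marks about 1 in 20.

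For 5 named genes outside the core set, the interaction term of edgeR, the difference in the effect of DEN between the diets, passed the threshold, as it did for 8.39% of all genes. These genes were named for large changes in comparisons that include DEN L-CD against nonDEN L-CD, which the interaction subtracts, so that the values are a description and no independent test. The difference in log2 fold change was 2.35 for *Arntl* (adjusted p = 0.00763), 1.40 for *Nfil3* (adjusted p = 0.00258), -1.83 for *Upp2* (adjusted p = 0.0333), -1.29 for *Usp2* (adjusted p = 0.041) and -1.75 for *Wee1* (adjusted p = 0.00256). All 5 rest on the same 3 nonDEN L-CD libraries. Over 31 alternatives the adjusted p of *Arntl*, *Nfil3* and *Wee1* stayed at or below 0.0473, 0.0146 and 0.0195, while that of *Upp2* was over 0.05 in 6 of 31 (up to 0.067, without DEN L-CD replicate 2) and that of *Usp2* in 15 of 31 (up to 0.116, without nonDEN L-CD replicate 2).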

How the results depend on the processing

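Without a minimum fold change, the clock members called were 2 in nonDEN L-WD and 2 in DEN L-CD, each against nonDEN L-CD, 1 in DEN PT-WD against nonDEN L-WD and 2 in tumor against peritumoral liver. The shares of all genes in the same order were 23.2%, 21.3%, 12.4% and 37.7%. On log2(TPM + 1), limma called 2 members with the western diet alone (nonDEN L-WD) and 0 for tumor against peritumoral liver. Over all 15625 genes it called 300 and 539. On that scale 8 members differed among the 5 groups, against 72.1% of all genes, and 1 had an interaction of DEN and diet, against 7.77%. On the same scale 0 of 45 pairs were correlated within DEN PT-WD. Without the 7 libraries with over 1000 TPM of acinar genes, a choice made after seeing the data, 2 members were called in each comparison with nonDEN L-CD and 3 had an interaction. Of 15794 genes in that fit, 1020 were called with the western diet and 743 in DEN L-CD, and 1577 had an interaction. DESeq2's Wald test found 2 members with an interaction, against 11.7% of all genes. With each replicate left out in turn, calls ran from 0 (without nonDEN L-CD replicate 2) to 2 in both comparisons with nonDEN L-CD (2 without nonDEN L-CD replicate 1 in both, without nonDEN L-WD replicate 2 in the one and without DEN L-CD replicate 1 in the other). Over all genes, 507 and 430 of 16004 were called without nonDEN L-CD replicate 2, and 924 and 842 of 15995 without replicate 1. The main fit called 825 and 734 of 15625. Member calls ran from 0 to 1 (without DEN L-CD replicate 1, where 208 of 15590 genes were called) between peritumoral liver and DEN L-CD. For the interaction member calls ran from 0 to 2, with 2 without nonDEN L-CD replicate 1 or DEN T-WD replicate 5 and 1 without nonDEN L-WD replicate 4, DEN L-CD replicate 1 or DEN PT-WD replicate 7. Over all genes, 1640 of 15995 had an interaction without nonDEN L-CD replicate 1 and 1943 of 15512 without DEN T-WD replicate 5. Among the 5 groups 4 to 5 members differed under these omissions, and 9877 to 11183 of all genes. Under each omission tumor against peritumoral liver had 1 call and peritumoral liver against nonDEN L-WD had 0. The cause of these changes was not tested. Whether equal replicate numbers pair the libraries is not known. Correlations of deviations between same-numbered libraries ran from -0.23 to 0.388, with means of -0.0102 to 0.149 in the 5 comparisons. These values cannot decide pairing, since no libraries known to share a mouse are there to set them against. With the number as a replicate block the calls were 1, 1, 0, 0 and 1 in the 5 comparisons, as without it. That fit also gave 4 among the groups and 0 for the interaction, as without the block. *Ciart* in tumor against peritumoral liver missed the threshold with the block (log2 fold change of -0.54). In fits of only the groups compared, *Npas2* dropped out where it fell under the count filter.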
